A study of Mus musculus with 4 samples.

Results

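Alx1, Alx4, Pax1 and Pax9 encode transcription factors of the early limb mesenchyme, and all 4 genes were taken by symbol from a count table of 25239 genes. The table comes from hindlimb buds of mouse embryos at embryonic day 11.5, of the FVB strain and labelled wild-type in genotype, that carried a red fluorescent reporter transgene at the H11 locus. In this transgene a human ZRS enhancer with the 404G>A base change, joined to the hsp68 promoter, drives mCherry. The ZRS drives Shh in the limb bud from a great distance. The populations were separated by dissection and fluorescent sorting: mCherry-positive anterior cells and mCherry-negative central cells, with 2 libraries of each. Both populations carried the transgene, so the position of the cells and the state of the reporter cannot be told apart in this comparison. The labels do not say whether libraries came from separate embryos or pools, so the p-values measure only the spread between these libraries.

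Alx genes encode paired-class homeodomain proteins related to Drosophila aristaless. In the limb bud Alx4 acts in the anterior mesenchyme, and mice lacking it form extra anterior digits with ectopic Shh at the anterior margin. Alx1, formerly Cart1, shapes the craniofacial skeleton and acts together with Alx4. Pax1 and Pax9 are paired-box paralogues that pattern the sclerotome and vertebral column. Both are also expressed in anterior limb mesenchyme, Pax1 close to the girdle and Pax9 more distally, and Pax9 is further required for teeth, palate and limb patterning. Hedgehog signalling from the notochord induces both genes in the sclerotome, whereas in the limb bud Shh is made at the opposite, posterior margin.

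The paralogues are close in sequence, which bears on whether their reads could be separated. The most similar 120-base coding windows that lie within 1 exon were taken from the GENCODE M21 transcripts (GRCm38, the assembly equivalent to the mm10 build named in the submitters' processing notes). For the Pax pair the window lies in the paired box, in exon 2 of 5 of Pax1 (chr2:147365978-147366097, plus strand) and in exon 3 of 5 of Pax9 (chr12:56696819-56696938, plus strand). It is 85.0% identical, and capitals mark the 18 bases that differ.
Pax1: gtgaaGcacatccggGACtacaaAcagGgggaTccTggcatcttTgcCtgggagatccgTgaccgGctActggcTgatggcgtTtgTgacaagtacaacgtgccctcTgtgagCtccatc
Pax9: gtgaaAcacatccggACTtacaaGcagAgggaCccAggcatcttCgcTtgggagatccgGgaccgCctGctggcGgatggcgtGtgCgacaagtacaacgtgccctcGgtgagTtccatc
For Alx1 and Alx4 the window lies in the homeobox, in exon 3 of 5 of Alx1 (chr10:103025144-103025263, minus strand) and in exon 2 of 4 of Alx4 (chr2:93668537-93668656, plus strand). Identity is 76.7%, with 28 differing bases in capitals.
Alx1: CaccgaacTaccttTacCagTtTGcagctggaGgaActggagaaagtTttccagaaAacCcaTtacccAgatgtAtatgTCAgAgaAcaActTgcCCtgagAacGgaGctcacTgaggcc
Alx4: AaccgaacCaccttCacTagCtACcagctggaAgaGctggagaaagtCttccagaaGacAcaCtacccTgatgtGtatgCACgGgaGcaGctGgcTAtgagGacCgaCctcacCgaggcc
Over the whole principal transcripts, the longest identical run was 26 bases between Pax1 and Pax9 and 19 bases between Alx1 and Alx4. Neither pair shared any run of 50 bases.

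Library totals ranged from 30080925 to 33257383 counts, and 14610 genes had enough counts to be tested, all 4 members among them. Levels are in CPM, the count of a gene per 1 M counts of its library after TMM scaling, with the SD over the 2 libraries. Calls were made by the quasi-likelihood F test of edgeR, where the p-value adjusted over all tested genes after Benjamini and Hochberg had to be under 0.05. Of the limb mesenchyme markers used to check the label, all 11 were tested. Their summed level was 4362 to 4586 CPM in anterior and 2621 to 2925 CPM in central cells. The markers did not move together: 7 were called higher, 1 lower and 3 were not called. Among the higher ones were Hoxd13 (764 against 253 CPM) and Lhx9 (561 against 92.2 CPM). Prrx1 was not called (696 ± 28.8 against 661 ± 28.2 CPM, SD, n = 2). Pdgfra was called lower (258 ± 27.7 against 582 ± 15.4 CPM). The hindlimb factors Tbx4 and Pitx1, also markers of this list, were not called between the populations, although Tbx4 was called lower without central replicate 1 (log2 fold change -0.21, adjusted p = 0.0266).

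The 4 genes did not move as an anterior group. Alx1 and Pax9 were higher in anterior cells, Pax1 was lower, and Alx4 was not called. Thus 3 of 4 were called, 2 higher and 1 lower, where 22.9% of all tested genes were called, 10.7% higher and 12.3% lower. All 3 calls exceeded 2-fold. Across all tested genes, 2.34% were called at least 2-fold higher and 6.78% at least 2-fold lower. The libraries of the 2 populations did not overlap for 3 of the 4 genes, and for 63.5% of all tested genes. Such separation was thus common in these data. The median log2 fold change of the 4 genes was 0.74, beside -0.0087 for all tested genes.

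**Figure D1:**
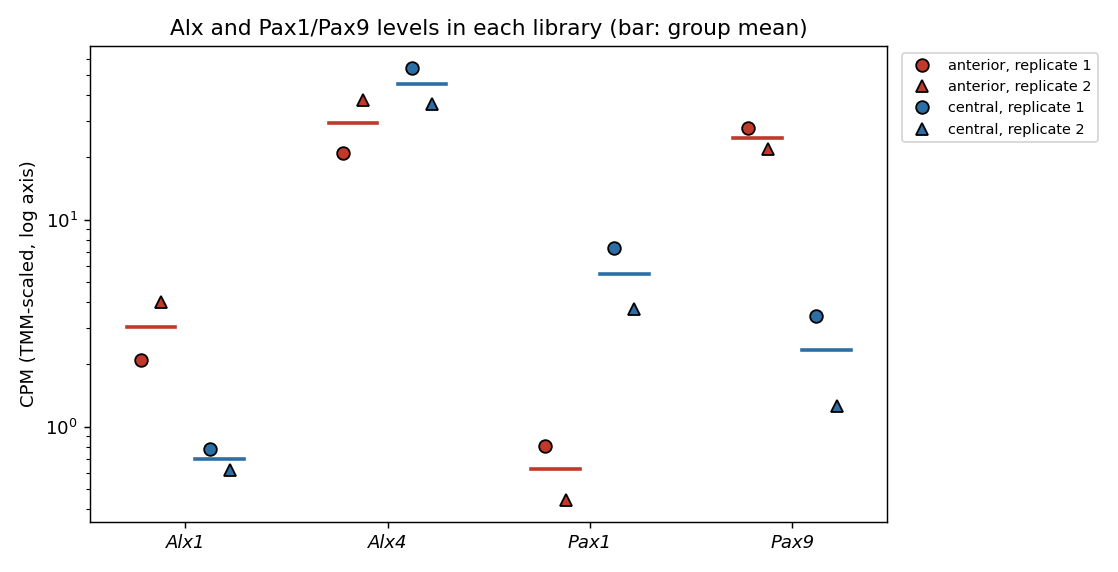
Level of each gene in each library as CPM on a log axis (red, anterior; blue, central; circles, replicate 1; triangles, replicate 2; bars, group means). Alx1 and Pax9 lie higher in both anterior libraries, Pax1 lies lower in both, and Alx4 overlaps, its anterior replicate 2 at 37.7 CPM and its central replicate 2 at 36.4 CPM.

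Pax9 was higher in anterior cells. Anterior cells gave 924 and 643 counts (27.7 and 21.9 CPM), and central cells gave 106 and 41 (3.44 and 1.27 CPM). Both anterior libraries lay above both central ones, and the central libraries differed from each other by a larger factor than the anterior ones did. Pax9 was 10.6-fold higher in anterior cells (95% interval 6.04 to 18.6), a log2 fold change of 3.40 ± 0.36 (SE, n = 2 per group) with adjusted p = 0.000258 by edgeR. Leaving out central replicate 1 raised the log2 fold change to 4.29 and kept the call (adjusted p = 6.82e-10 by edgeR). Of the 14610 tested genes, 341 had a larger absolute log2 fold change.

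Pax1, its paralogue, went the other way. Pax1 had 27 and 13 counts in anterior cells (0.81 and 0.44 CPM) against 224 and 120 in central cells (7.27 and 3.71 CPM). The groups did not overlap, as for 63.5% of all tested genes, and Pax1 was the least abundant of the 4 genes in anterior cells. It was 8.64-fold lower there, with a log2 fold change of -3.11 ± 0.46 (SE, n = 2 per group; 95% interval -4.16 to -2.06) and adjusted p = 0.00185 by edgeR. Both anterior libraries stayed above the floor of 3 counts, which corresponds to 0.0899 to 0.102 CPM.

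Alx1 was low in both populations and higher in anterior cells. Its counts were 70 and 117 in anterior cells (2.10 and 3.99 CPM) and 24 and 20 in central cells (0.78 and 0.62 CPM). Anterior replicate 2 stood highest. Alx1 was 4.33-fold higher in anterior cells (95% interval 2.10 to 8.95), with a log2 fold change of 2.12 ± 0.46 (SE, n = 2 per group) and adjusted p = 0.0117 by edgeR. Leaving out anterior replicate 2 gave a log2 fold change of 1.59 and ended the call (adjusted p = 0.108 by edgeR), so the Alx1 call rests in part on that library.

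Alx4 had the highest mean CPM of the 4 genes in both populations, although Pax9 exceeded it in anterior replicate 1. It had 701 and 1105 counts in anterior cells (21.0 and 37.7 CPM) and 1673 and 1177 in central cells (54.3 and 36.4 CPM). Anterior replicate 2 and central replicate 2 were nearly equal, so the groups overlapped. The log2 fold change was -0.63 ± 0.26 (SE, n = 2 per group) with adjusted p = 0.119 by edgeR. Its unadjusted 95% interval, -1.22 to -0.042, leaves room for a fall of more than 2-fold and for almost no difference. The Alx4 result turned on the filter and on single libraries. Without a filter beyond 1 count Alx4 was called at the same log2 fold change of -0.63 (adjusted p = 0.0145 by edgeR). That fit lowered the edgeR adjusted p-values of all 4 genes, for Pax9 from 0.000258 to 5.07e-10, so the shift was not particular to Alx4. It was also called lower without anterior replicate 2 (log2 fold change -1.10, adjusted p = 0.00123 by edgeR) and without central replicate 2 (-0.89, 0.00171). With anterior replicate 1 or central replicate 1 left out, the values were -0.26 and -0.31 and were not called (adjusted p-values 0.397 and 0.345).

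**Figure D2:**
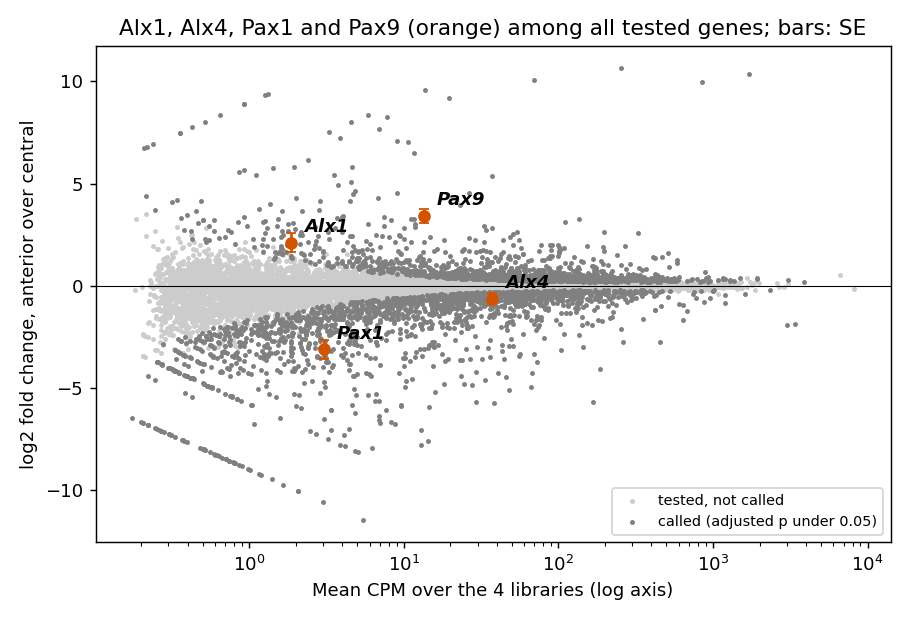
Log2 fold change of anterior over central cells against mean CPM on a log axis for all tested genes (light grey, not called; dark grey, called), with the 4 genes in orange and SE bars. Pax9 at 3.40 and Pax1 at -3.11 lie on opposite sides of 0, and Alx4 at -0.63 lies nearest to it.

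Per kilobase of exon, the order of levels differed between the populations. In anterior cells Pax9 (4.91 ± 0.81 CPM per kb, SD, n = 2) and Alx4 (4.16 ± 1.67) led and did not differ beyond their spread, followed by Alx1 (0.53 ± 0.23) and Pax1 (0.14 ± 0.06). In central cells Alx4 stood first at 6.42 ± 1.80 CPM per kb, followed by Pax1 (1.22 ± 0.56), Pax9 (0.47 ± 0.30) and Alx1 (0.12 ± 0.02), and no 2 neighbours in that order overlapped between libraries. These lengths pool all annotated exons. With the principal transcript's length alone, Alx1 stood at 1.13 and 0.26 CPM per kb in anterior and central cells, and the order of the 4 genes stayed as given in each population.

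Ratios of levels per kilobase within a library compare paralogues without regard to library scaling. Pax9 stood 30.4 and 43.9 times above Pax1 in the anterior libraries and at 0.42 and 0.30 of Pax1 in the central ones, so the more abundant paralogue was Pax9 in both anterior libraries and Pax1 in both central ones. Alx4 stood 8.17 and 7.70 times above Alx1 in anterior libraries and 56.8 and 48.0 times above it in central ones. The populations did not overlap in either ratio. The size of each ratio depends on the gene lengths used. With principal transcripts, Alx4 over Alx1 was 5.13 and 4.83 in anterior and 35.7 and 30.1 in central libraries. The lengths cancel where the populations are compared. The ratios are given as a description, with no test.

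**Figure D3:**
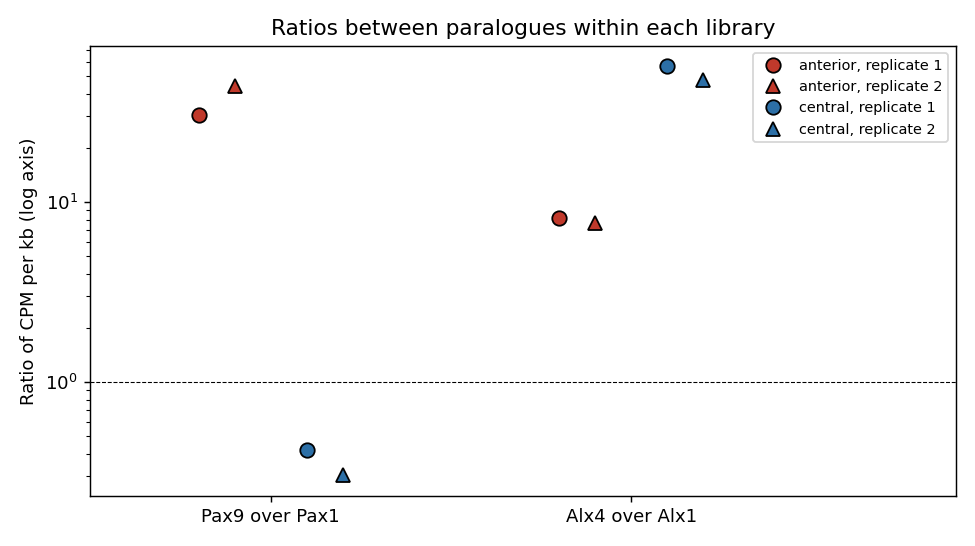
Ratio of CPM per kb between paralogues within each library on a log axis (red, anterior; blue, central; circles, replicate 1; triangles, replicate 2; dashed line, equal levels). Pax9 over Pax1 is above 1 in both anterior libraries and below 1 in both central ones, and Alx4 over Alx1 is lower in both anterior libraries.

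Replicates of 1 population differed more for these genes than for most genes of their level, except Alx1 in central cells. For Alx4, 4568 tested genes had a mean level within 2-fold of its own, and 99.4% of them differed less between the anterior replicates and 99.1% less between the central replicates. For Pax9 the corresponding shares were 85.0% and 99.4% of 3071 genes. They were 85.8% and 91.8% of 1900 genes for Pax1 and 83.8% and 41.6% of 1862 genes for Alx1. Alx1 and Alx4 were both higher in anterior replicate 2 than in anterior replicate 1, by 0.91 and 0.84 on the log2 scale. Both Pax genes were lower in replicate 2 in each population. Anterior replicate 2 also had the most blood marker RNA, 8391 CPM summed over the list against 3299 CPM in anterior replicate 1 and 10.7 to 13.1 CPM in the central libraries, and the part of this in the Alx values was not tested. With the blood list and the ribosomal RNA precursor Rn45s removed before scaling, the log2 fold change of Alx1 was 2.12 and that of Alx4 was -0.63. This removal alters the scaling and leaves the Alx counts as they are. It therefore cannot show what part of the Alx values goes with blood RNA.

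The rest of the Pax family was scarce in anterior cells. Pax2, Pax4, Pax5, Pax6 and Pax8 were scarce in central cells as well, with means of at most 0.44 CPM there. None of the 7 Pax genes outside the members was called higher. Of the 3 that were tested, Pax3 and Pax7 were lower and Pax2 was not called (14 and 4 counts against 14 and 14). Pax3, which marks muscle precursors migrating into the limb, measured 0.32 ± 0.06 CPM in anterior and 18.7 ± 3.0 CPM in central cells (SD, n = 2), a log2 difference of -5.86 ± 0.27 (SE; adjusted p = 3.40e-06 by edgeR). Pax7, a later muscle progenitor gene, was at 0 counts in anterior replicates 1 and 2, against 49 and 14 counts in central cells. Pax1 therefore shared its direction with Pax3 and Pax7, and of the 5 Pax genes tested by edgeR only Pax9 was called higher in anterior cells.

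Other paired-class homeobox genes were split. Of 17 found in the table, 9 were tested, 2 were called higher and 4 lower (median log2 fold change -1.59). Prrx2, a factor of limb and craniofacial mesenchyme, was higher at 308 ± 15.9 against 82.0 ± 13.8 CPM (SD, n = 2; log2 fold change 1.91). Shox2, needed for the proximal limb skeleton, was lower at 67.8 ± 14.2 against 454 ± 12.6 CPM (log2 fold change -2.74). Gsc was lower too, at 2.15 CPM in anterior cells (log2 fold change -4.39).

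Genes known from the anterior limb bud were mostly higher in anterior cells but held members that fell, as Pax1 did. Of 11 genes, 7 were called higher and 3 lower, with a median log2 fold change of 1.27. Msx1 (log2 fold change 3.26) rose by an amount close to that of Pax9, and Msx2 rose by 2.80. Irx5 (-5.91) and Irx3 (-5.69), homeobox factors of the proximal and anterior bud, were lower, as Pax1 was. Their size rested on anterior replicate 1, without which the values were -8.63 for Irx5 and -6.71 for Irx3, and without anterior replicate 2 Irx5 was at -5.08. Both stayed called in every fit without 1 library. Epha3, an ephrin receptor, was not called in the main fit (-0.95). On all 4 libraries it was called lower once the replicate block was added (-1.19, edgeR adjusted p = 0.0147). It was also called lower without a filter beyond 1 count (-0.95, edgeR adjusted p = 0.0315). Without anterior replicate 1 its log2 fold change was -2.30.

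Of 6 factors known, like Alx4, to restrain Shh outside the posterior margin, 5 were tested, 4 were called higher and 1 lower. Etv4 (log2 fold change 1.48 ± 0.07 SE), Etv5 (1.33 ± 0.08), Twist1 (0.83 ± 0.08) and Gli3 (0.81 ± 0.09) were higher, with edgeR adjusted p-values from 3.72e-06 to 0.00034. Gata6 was lower at 2.57 ± 0.66 against 5.20 ± 0.14 CPM (SD, n = 2; adjusted p = 0.0351 by edgeR) and was named after its values were seen. Its call was lost without anterior replicate 1 or central replicate 1 (edgeR adjusted p-values 0.161 and 0.066). Alx4 did not share the rise of these 4 genes.

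The hedgehog pathway list held 1 gene called higher, Gli3, and 8 called lower of 14 tested, with a median log2 fold change of -0.48. Hhip, an inhibitor and target of the pathway, was lowest at -2.63, followed by the co-receptor Boc at -0.99 and the posterior regulator Hand2 at -0.78. The targets Ptch1 (-0.54) and Gli1 (-0.42) were called lower, and the Gli1 call was lost without anterior replicate 2 (adjusted p = 0.0788 by edgeR). Shh itself had 913 and 344 counts in anterior and 408 and 394 in central cells and was not called (adjusted p = 0.203 by edgeR). It was called higher without anterior replicate 2 (log2 fold change 1.11, adjusted p-value 0.00032), and its sign turned to -0.11 without anterior replicate 1. In the library with the highest Shh, anterior replicate 1, Alx1 and Alx4 were at the lower of their anterior values and Pax1 and Pax9 at the higher. This compares single libraries, which also differed in blood marker RNA (3299 CPM in anterior replicate 1, 8391 CPM in anterior replicate 2). A link between Shh and these genes was not tested.

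Genes known to act downstream of or with Pax1 and Pax9 in sclerotome, tooth or palate were called higher in 2 of 9 and lower in 4, with a median log2 fold change of -1.47. All but Osr2 also stand in other lists described here, so the counts of these lists are not independent. Msx1 and Bmp4 are shared with the anterior limb bud list and Nkx3-2 with the sclerotome list. Sox5, Sox6, Sox9, Acan and Col2a1 are shared with the cartilage list. The genes called higher were Msx1 and Bmp4, the latter at 146 ± 12.5 against 53.7 ± 3.6 CPM (SD, n = 2; adjusted p = 1.18e-05 by edgeR). Osr2, a palate and limb factor, fell from 93.1 ± 17.1 CPM in central to 2.73 ± 0.68 CPM in anterior cells (log2 fold change -5.08 ± 0.19 SE, adjusted p = 1.14e-06 by edgeR). Col2a1 (-2.73), the main cartilage collagen gene, and Sox6 (-1.47), a cartilage regulator, were also lower. Nkx3-2, a direct sclerotomal target of Pax1 and Pax9, had 50 and 12 counts in anterior and 157 and 45 in central cells and was not called (adjusted p = 0.115 by edgeR). On all 4 libraries, Nkx3-2 was called lower once the replicate block was added (log2 fold change -1.76, adjusted p = 0.00872 by edgeR). It was also called lower without a filter beyond 1 count (-1.74, adjusted p = 0.0198 by edgeR). Its log2 fold change was -2.97 without anterior replicate 1, -2.39 without central replicate 2 and -0.53 without central replicate 1. Its replicates differed about as much as its groups, and in each population replicate 1 was the higher, as for both Pax genes.

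Girdle patterning genes, several of which are expressed in proximal mesenchyme near the body wall as Pax1 is, were called lower in 7 of 10 and higher in none (median log2 fold change -1.08). Meis1 (-4.46), Meis2 (-4.27) and Isl1 (-3.10) were lower in anterior cells, as Pax1 was. Single libraries moved these values: without anterior replicate 1 they were -5.62, -5.97 and -5.05, and without anterior replicate 2 they were -3.86, -3.54 and -2.32, all of them still called. Sclerotome and body wall genes were lower in 6 of the 7 tested, with a median of -3.35 and a summed level of 50.4 to 67.6 CPM in anterior and 383 to 433 CPM in central cells. Among them Meox1 (-4.64), Foxc1 (-3.50), Meox2 (-3.35) and Tbx18 (-2.35) moved with Pax1 and against Pax9, and their part in the Pax1 value was not tested. Uncx, a defining gene of posterior sclerotome, had at most 4 counts in any library. In bulk libraries, fewer cells of a type and less RNA per cell cannot be told apart.

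**Figure D4:**
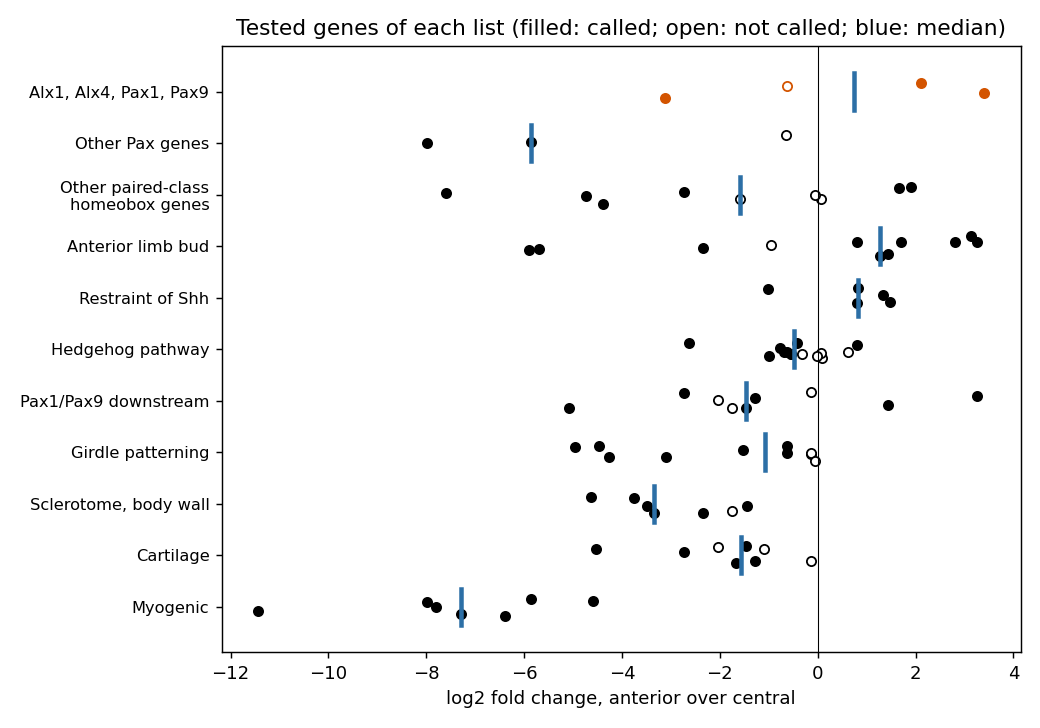
Log2 fold change of anterior over central cells for the tested genes of each list (1 point per gene; filled, called; open, not called; blue line, median). The 4 genes, in orange, span -3.11 to 3.40, whereas the girdle, sclerotome, cartilage and myogenic lists lie below 0 throughout.

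Markers of other cell types differed between the populations, and their part in the values of the 4 genes was not tested. Summed myogenic markers were at 2.35 to 4.17 CPM in anterior and 142 to 143 CPM in central cells, and all 7 were called lower, with Myog and Pax7 at 0 in both anterior libraries. The cartilage list was lower in 5 of 8 tested genes (305 to 419 against 1213 to 1541 CPM). The ectoderm list was lower in 9 of 10 (10.1 to 10.4 against 56.8 to 190 CPM) and the endothelial list in 6 of 8 (5.31 to 9.51 against 27.1 to 39.4 CPM). Of the neural crest and Schwann markers, 4 were tested, 2 were lower and 1, Tfap2b, was higher, while Sox10 and Foxd3 were at 0 in both anterior libraries. Blood genes were called higher in 7 of 10 tested.

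Neighbouring genes on the chromosome were compared with each of the 4 genes. The 3 nearest protein-coding genes of the table on each side that do not overlap the gene numbered 24 in all, and 13 of them were tested. Of these, 2 were called higher and 2 lower, or 30.8% against 22.9% of all tested genes. Beside Alx1, Rassf9, whose start lies 518 kb away, was higher at 14.7 ± 2.6 against 6.04 ± 1.20 CPM (SD, n = 2; log2 fold change 1.28, adjusted p = 0.00301 by edgeR). Around Alx4, Tspan18 at 308 kb was higher (log2 fold change 1.42, adjusted p-value 3.8e-05), and Cd82 at 179 kb (-1.27) and Trp53i11 at 455 kb (-0.35) were lower. The Cd82 call was lost without anterior replicate 2 or central replicate 1 (edgeR adjusted p-values 0.066 and 0.121) and that of Trp53i11 without anterior replicate 1 (0.153). None of the 2 tested neighbours of Pax1 or the 3 of Pax9 was called by edgeR. The homeobox genes Nkx2-1 and Nkx2-9, next to Pax9, and Nkx2-2, next to Pax1, had 0 counts in all 4 libraries. So did the forkhead gene Foxa2, also next to Pax1. A count of 0 allows up to 3 counts, or 0.0899 to 0.102 CPM, in each library.

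**Figure D5:**
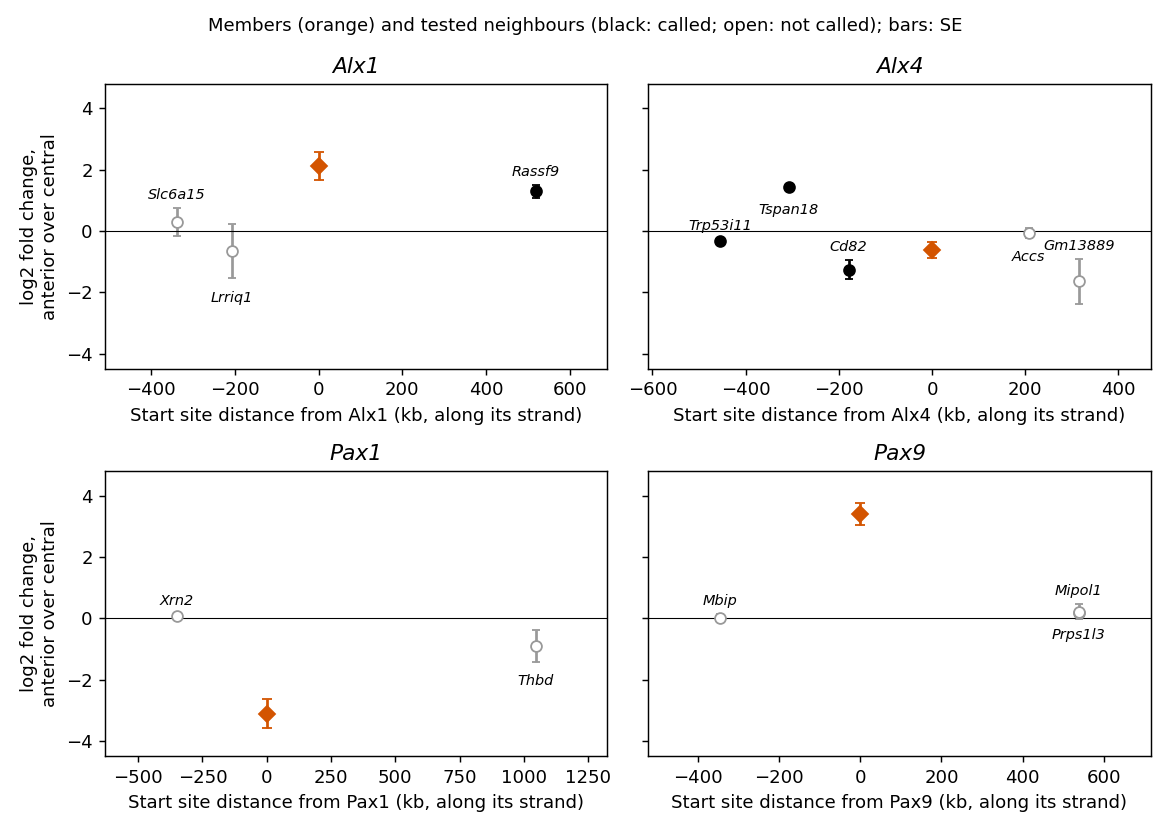
Log2 fold change with SE for each gene (orange) and its tested neighbours (filled, called; open, not called) against the distance between start sites in kb along the gene's own strand. Genes that overlap one of the 4 are not plotted; the plotted neighbours of Pax9 (3.40) and Pax1 (-3.11) lie within 1 log2 unit of 0.

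Genes that overlap the 4 genes were taken separately. Pax9 (chr12:56691767-56712822, plus strand) overlaps at its 3′ end with Slc25a21 (chr12:56712634-57197472, minus strand), which encodes a mitochondrial carrier. Slc25a21 counts were 41 and 63 in anterior cells against 2 and 0 in central cells, and the gene was called higher (adjusted p = 0.00306 by edgeR), as Pax9 was. Its anterior replicates ranked opposite to those of Pax9. Whether the counting used strand is not given in the sources used here, so reads from these convergent genes cannot be told apart where they overlap. Alx4 (chr2:93642384-93681339, plus strand) overlaps the 3′ part of Ext2, a heparan sulphate synthesis gene on the minus strand, and Ext2 did not differ between the populations beyond its spread (63.1 ± 2.4 against 67.0 ± 4.1 CPM, SD, n = 2; adjusted p = 0.506 by edgeR). The annotated antisense gene AI646519 at the start of Pax1 (chr2:147361925-147393295, plus strand) had 3 counts in central replicate 1 and 0 in the other libraries. Alx1 (chr10:102998707-103030215, minus strand) overlaps only the noncoding Gm17028 on its own strand, which was not analysed here. The annotated antisense gene Gm15524 (chr12:56689918-56692964, minus strand) overlaps the start of Pax9 and was not in the count table.

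Among 10605 tested genes with a mean of at least 5 CPM, those with the closest pattern over the 4 libraries were ranked by Euclidean distance in centred log2 CPM. Nearest to Pax9 were Msx1os (distance 0.59), the antisense transcript of Msx1, then Rbfox3 (0.63), which encodes an RNA-binding protein, and Msx1 (0.82). Nearest to Pax1 were Angptl1 (0.29), which encodes a secreted angiopoietin-like protein, the forkhead factor gene Foxp2 (0.36) and the ligand gene Tgfb2 (0.41). Alx1 was closest to Slc25a37 (0.27), which encodes the iron importer of erythroid mitochondria, then to Rspo4 (0.28), a gene for an activator of Wnt signalling, and the acid phosphatase gene Acp5 (0.29). Slc25a37 had 81.3 and 166 CPM in anterior and 30.4 and 31.4 CPM in central cells, and so shared the high value of anterior replicate 2. Nearest to Alx4 were Nucb2 (0.26), Xrcc4 (0.30) and Tafa5 (0.31), none of which was called. Over only 4 libraries such nearness describes these libraries.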

How the data were processed

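RNA was sequenced from sorted anterior and central hindlimb cells. The authors deposited 1 table of raw read counts per gene symbol. Per the submitters' processing notes, STAR 2.7.9a, HTSeq, DESeq2 3.16 and mm10 were named, without roles. The annotation and strand setting are not given in the sources used here. Columns were matched to samples by domain name and number in the titles. Even numbers made up 72.8% to 75.6% of counts from 1 to 10, so the number of independent fragments may be lower than the counts, and halved counts were fitted too.

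Counts were fitted with edgeR 4.0.16 in R 4.3.3 (filterByExpr, TMM, quasi-likelihood F test of anterior against central, Benjamini-Hochberg, threshold 0.05, 2 residual degrees of freedom). The standard error is the absolute log2 fold change divided by the square root of F. The fit was tested on simulated data. Alternatives were 3 other scalings, the DESeq2 1.42.0 Wald test, limma-voom (limma 3.58.1), 2 other filters on low counts, the replicate block, halved counts, removal of blood genes and Rn45s, and leaving out each library. Lengths, coordinates and transcripts came from GENCODE M21 (GRCm38). No column was left unmatched (0). Intervals and floors cover counting or replicate error only.

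The 4 genes, the gene lists and the rules were chosen with earlier results of these data known. Named genes were the 4 members, up to 4 called genes per list with the largest absolute log2 fold change and a mean of at least 5 CPM, 5 hedgehog-related genes, called neighbours, and the 3 closest patterns per member. Slc25a21, Ext2 and list genes named outside this rule were chosen after their values were seen. Some genes that met the rule are not reported here.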

Additional observations from a re-analysis of the deposited data

How the results depend on the processing

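Pax9 and Pax1 kept their direction and call in all 10 other fits on 4 libraries and in all 4 fits without 1 library. Their log2 fold changes ranged from 3.37 to 3.58 and from -3.15 to -3.03 in the former, and from 2.85 to 4.29 and from -3.61 to -2.55 in the latter. Alx1 was called in all 10 (2.01 to 2.13, adjusted p-values 0.00069 to 0.0272) and in 3 of the 4 fits without 1 library (1.59 to 2.51). Alx4 stayed negative throughout. Without a filter beyond 1 count it was called (-0.63, adjusted p = 0.0145, where the 10 fits ran from 0.0145 to 0.436), and without 1 library it ranged from -1.10 to -0.26 and was called in 2 of 4 fits. The cause was not tested. A fit without 1 library leaves a lone library in a population, which is assumed to vary like the other population.

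The count of called genes over all genes ranged from 2009 (without anterior replicate 2) to 3697 in those fits. With blood genes and Rn45s removed, 13 list genes instead of 20 were called higher, since the removed genes were among them. With the length of the principal transcript, an alternative chosen after the data were seen, levels per kb were 1.13 and 0.26 for Alx1 (anterior, central), 8.63 for Alx4 in central cells, 0.24 and 2.08 for Pax1 and 5.86 for Pax9 in anterior cells. Ratios for replicates 1 and 2 were then 5.13 and 4.83 (anterior) and 35.7 and 30.1 (central) for Alx4 over Alx1, and 21.4 and 30.9 (anterior) and 0.30 and 0.21 (central) for Pax9 over Pax1. Of 60 other genes given by the naming rule, 56 were tested in all 10 fits on 4 libraries, and 53 of these kept direction and call in each. The exceptions were Fgf8, Krt5 and Trp63 with limma-voom. The 4 others are blood genes left out of 1 fit, and 3 of them kept direction and call where tested, Slc4a1 being lost with limma-voom. Among the 60, signs turned only without anterior replicate 1, for Shh (-0.11) and Xrcc4 (0.012), neither of them called there. Over the fits without 1 library, Shh ranged from -0.11 to 1.11, Xrcc4 from -0.89 to 0.012 and Pitx1, outside the rule, from -0.12 to 0.043.

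Replicates 1 and 2 share only a number in the titles. Adding the replicate block gave 3586 called genes. The log2 fold changes were 2.06 for Alx1, -0.65 for Alx4, -3.12 for Pax1 and 3.48 for Pax9, and no call of the 4 genes changed. Across genes, the replicate differences in the populations correlated at 0.0463. With 2 libraries per group, Alx1 in central cells and Pax1 in anterior cells rest on 13 to 27 counts per library.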
